A study of Mus musculus with 16 samples.

Results

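The kinesin superfamily was followed across control P19 cells, P19 cells transfected with a mimic of the microRNA let-7a, with a small interfering RNA against Sfpq (siSfpq), or with both. P19 is a mouse embryonal carcinoma line that can differentiate into neurons. Members were all genes whose name on the array starts with Kif followed by a digit, which gave 38 of the 27442 named genes on the array, measured by 63 probes. Of these, 35 genes with 50 probes were tested, those whose signal the scanner software marked as clearly above background in each of the 4 arrays of some condition. The mimic and the siRNA were used at 24 nM per the study's methods, and RNA was taken 48 h after transfection. All cells came from 1 line and the transfections were transient. The study asked whether Sfpq, a nuclear RNA-binding protein, takes part in silencing by let-7a, and the arrays give the mRNA side of that question.

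Kinesins are motor proteins that use ATP to walk along microtubules or to take their ends apart. Dividing cells use a mitotic set to build the spindle, to align and separate the chromosomes and to complete cytokinesis, and the mRNAs of this set are made mainly late in the cell cycle. Cells that no longer divide, above all neurons, rely on a transport set that carries vesicles, mitochondria and membrane proteins along axons and dendrites. Others act in cilia. The let-7 family is low in stem cells, rises with differentiation and restrains proliferation. The mature let-7a guide strand is printed because it is the agent of both mimic conditions, with its seed, bases 2 to 8 from the 5′ end, in capitals. The letters are those of the RefSeq entry at chr13:48538239-48538260 on the minus strand of GRCm38.p6.
mmu-let-7a-5p: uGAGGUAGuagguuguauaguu

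Genes were sorted by known role into 12 mitotic kinesins, 15 transport kinesins, 6 kinesins of cilia and centrioles and 5 others. Of the mitotic genes 11 were tested, of the transport genes 15, of the ciliary genes 5 and of the others 4. Kif2b, Kif9 and the pseudogene Kif4-ps did not reach the background limit in any condition. Arrays 1 and 2 of each condition differed by little more than repeated spots of a probe, and were averaged to 1 sample, so that each condition had n = 3. Levels are log2 of the processed intensity after quantile normalization. A gene is said to pass the test when limma's adjusted p, taken over all 18338 genes tested, was under 0.05. The deposited labels do not say that the samples came from separate cultures, so p-values measure only the spread between these samples. They number the replicates alike in every condition, and samples with the same number deviated from their group means together. Results with the replicate number as a block are therefore given where they change a call.

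The targeted gene was lower in every siSfpq sample. Sfpq had a level of 11.98 to 12.07 in control and of 10.55, 11.46 and 10.62 in siSfpq samples, a change of -1.13 ± 0.19 (SE) with a limma adjusted p of 0.00728. In cells with both agents it was 11.31 to 11.49, below all let-7a samples, with a change against let-7a alone of -0.58 ± 0.19 that did not pass (limma adjusted p = 0.142). Without replicate 3 it passed, at -0.61 (limma adjusted p = 0.000945). Against siSfpq alone Sfpq had a change of 0.52 ± 0.19 with both agents that did not pass (limma adjusted p = 0.0994). It passed with the replicate block (adjusted p = 0.0383), a term that pairs same-numbered samples, and, at 0.77, without replicate 3 (adjusted p = 0.000141). The highest siSfpq value was that of replicate 3, which also stood apart from the other replicates of each condition over all genes. Values without replicate 3 are given beside the results that rest on it. Those fits hold 2 samples per condition, and replicate 3 was singled out by its values in these same data. With replicates 1 and 2 or replicate 4 left out instead, at most 0.0164% of all genes passed in any comparison. The calls without replicate 3 thus depend on which sample was left out. Among markers of embryonal carcinoma cells, 6 of 7 were measured, with mean control levels from 4.84 for Dppa5a to 14.62 for Pou5f1. Nanog and Utf1 fell with let-7a, where 2.03% of all genes did, and with siSfpq Utf1 rose and Sox2 fell, where 6.31% and 7.34% of all genes did.

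Mitotic kinesins had a negative median change with let-7a, a positive one with siSfpq and, over all replicates, a median near 0 with both. With let-7a all 11 tested members had a negative change, from -0.59 for Kif23 to -0.37 for Kif18a, with a median of -0.45. The median over all genes tested was -0.04. None of the 11 passed limma's test in this comparison, in which 6.94% of all genes did, and 5 of the 11 had an unadjusted p under 0.05, as did 9.38% of all genes with a negative change. For 5 of the 11 all let-7a samples lay below all control samples, which held for 14.4% of all genes. With the replicate block 4 of the 11 fell, Kif20a, Kif20b, Kif22 and Kif4, where 10.1% of all genes passed as lower. Without replicate 3, 8 of 11 passed as lower, against 14.5% of all genes.

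**Figure D1:**
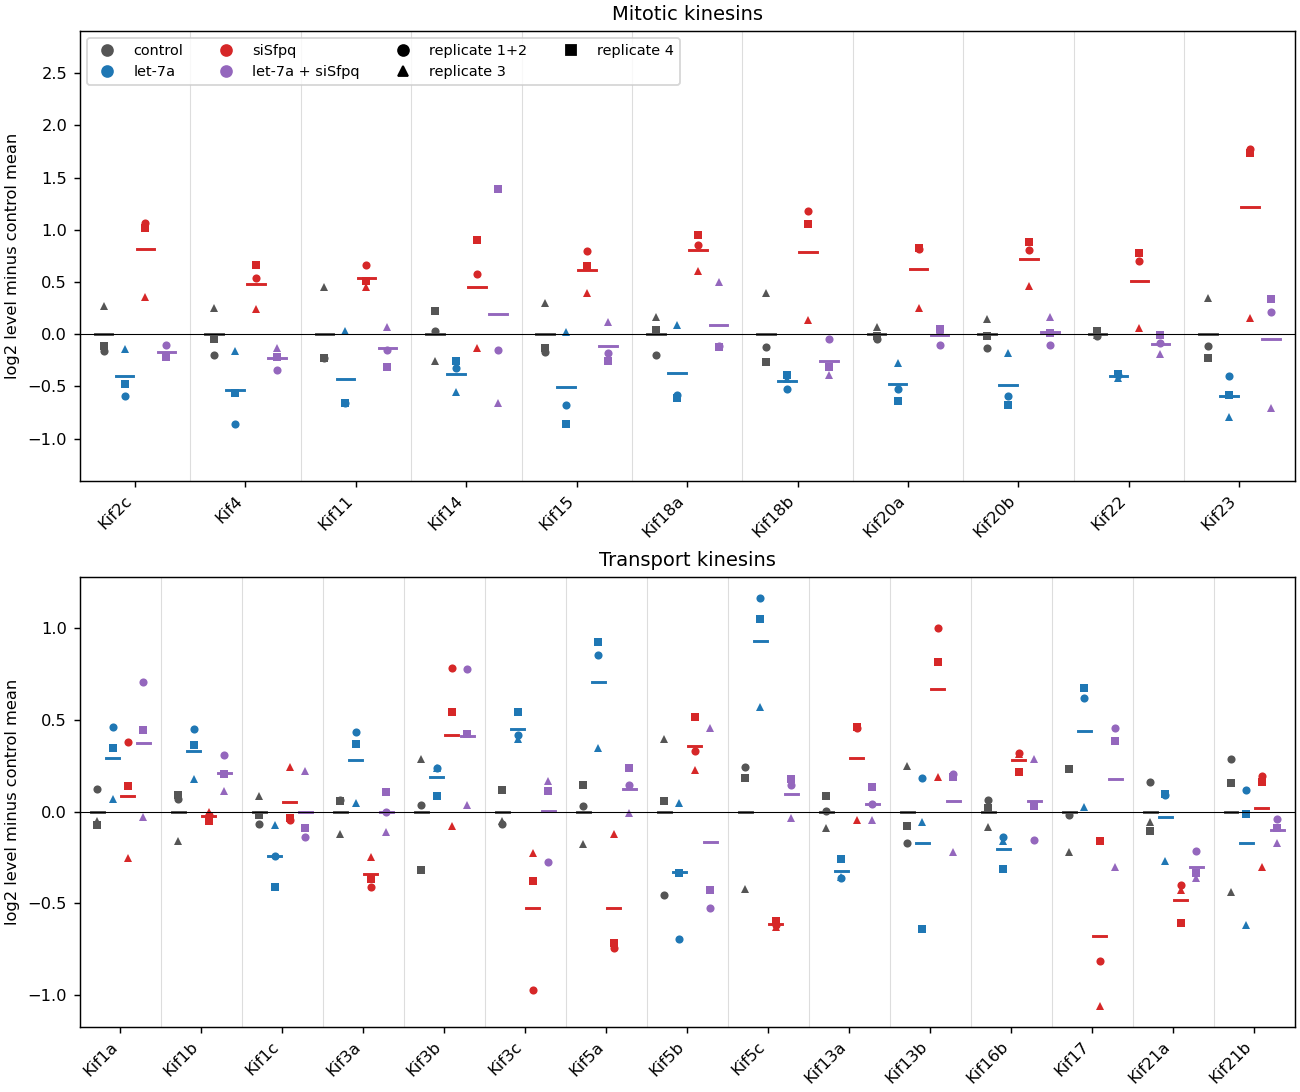
Level of each mitotic and transport kinesin in the 12 samples, as log2 level minus the gene's mean in control (vertical axis), by gene (horizontal axis). Points are samples, short bars are means of 3, colours give the condition and shapes the replicate. For each mitotic kinesin the siSfpq mean lies above and the let-7a mean below control, while single points overlap control for some. Transport kinesins differ in direction from gene to gene.

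With siSfpq all 11 mitotic kinesins had a positive change, from 0.45 for Kif14 to 1.22 for Kif23, with a median of 0.63 against 0.01 over all genes tested. Among all genes tested 13.7% passed in this comparison, and 6.31% passed as higher. Of the mitotic members 5 rose, Kif2c, Kif18a, Kif20a, Kif20b and Kif22. With the replicate block 10 rose, all tested members except Kif14, against 18.4% of all genes. Without replicate 3 the same 10 rose, against 24% of all genes. The rise was carried by replicates 1, 2 and 4. The list's median was 0.93 for the mean of replicates 1 and 2 and 0.84 for replicate 4. It was 0.09 for replicate 3, where the knockdown was weakest and the control sample was itself high for this list. Relative to each gene's control mean, the list's median in control was 0.25 in replicate 3. It was -0.13 for the mean of replicates 1 and 2 and -0.05 for replicate 4. The part of either in the smaller change was not tested.

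The chromosome passenger and central spindle motors come first. Kif20a, which brings the chromosomal passenger complex to the central spindle, had levels of 12.96, 13.07 and 12.99 in control and 12.48, 12.74 and 12.37 with let-7a. They were 13.82, 13.26 and 13.83 with siSfpq, while those with both were 12.91, 13.05 and 13.06. All let-7a samples were below and all siSfpq samples above all control samples, and the samples with both overlapped control. The change was 0.63 ± 0.15 (SE) with siSfpq (limma adjusted p = 0.0213) and -0.48 ± 0.15 with let-7a (adjusted p = 0.0798, or 0.046 with the replicate block). Its relative Kif20b, needed for the last steps of cytokinesis, had levels of 12.01, 12.29 and 12.12 in control, 11.55, 11.96 and 11.46 with let-7a, 12.94, 12.60 and 13.02 with siSfpq. With both agents it had 12.04, 12.30 and 12.15. The order of the conditions was as for Kif20a. Its change was 0.72 ± 0.15 with siSfpq (limma adjusted p = 0.0149) and -0.48 ± 0.15 with let-7a (adjusted p = 0.0837, or 0.0375 with the block).

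Kif23, the motor of the centralspindlin complex, changed most in value. Its levels were 7.34, 7.80 and 7.23 in control, 7.05, 6.67 and 6.88 with let-7a, 9.23, 7.61 and 9.20 with siSfpq. The samples with both had 7.67, 6.75 and 7.80. The siSfpq sample of replicate 3 lay within the control range and the other siSfpq samples far above it. The change with siSfpq of 1.22 ± 0.40 did not pass limma's test (adjusted p = 0.0655) and passed with the block (adjusted p = 0.0208). Without replicate 3 it was 1.93 (limma adjusted p = 1.28e-05). The probes of Kif23 disagreed in size: the probe at chr9:61775096-61775155 (mm9) changed by 1.83 with siSfpq and that at chr9:61767492-61767732 by 0.62. The former was well above background on all 4 control and siSfpq arrays but on 3 of 4 in each of the other conditions.

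Among the motors that move chromosomes, Kif22, a chromokinesin that binds DNA and pushes chromosome arms toward the spindle equator, had the smallest spread in control. It measured 12.82, 12.84 and 12.87 in control, 12.45, 12.43 and 12.46 with let-7a, 13.54, 12.90 and 13.62 with siSfpq. With both they were 12.77, 12.66 and 12.83. Neither single treatment overlapped control. Kif22 rose by 0.51 ± 0.15 with siSfpq (limma adjusted p = 0.0471), and its change of -0.40 ± 0.15 with let-7a passed with the block (adjusted p = 0.157, or 0.0469 with the block). The other chromokinesin, Kif4, which shortens chromosomes and the midzone microtubules, had levels of 9.70, 10.16 and 9.86 in control, 9.05, 9.74 and 9.34 with let-7a, 10.44, 10.15 and 10.57 with siSfpq. With both agents it had 9.56, 9.77 and 9.69. Here both single treatments overlapped control at replicate 3. Its changes were 0.48 ± 0.18 with siSfpq (limma adjusted p = 0.101, or 0.0376 with the block) and -0.53 ± 0.18 with let-7a (adjusted p = 0.118, or 0.0393 with the block).

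Of the motors that act on microtubule ends, Kif2c, which takes apart the ends at kinetochores to free wrong attachments, had levels of 8.26, 8.69 and 8.31 in control and 7.83, 8.28 and 7.94 with let-7a. They were 9.48, 8.78 and 9.44 with siSfpq, while those with both were 8.31, 8.22 and 8.20. Every siSfpq sample was above control, and the change was 0.81 ± 0.20 (limma adjusted p = 0.0249). Both Kif2c probes gave this change, at 0.83 and 0.80. Kif18a, which dampens chromosome oscillations at the spindle equator, measured 9.29, 9.66 and 9.53 in control, 8.92, 9.58 and 8.89 with let-7a, 10.34, 10.10 and 10.44 with siSfpq. The samples with both had 9.38, 9.99 and 9.37. It rose by 0.80 ± 0.22 with siSfpq (limma adjusted p = 0.034). Its relative Kif18b had a change of 0.79 ± 0.26 that passed with the block (adjusted p = 0.0663, or 0.036 with the block).

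The remaining mitotic members slide or crosslink microtubules or act in abscission. Kif11, the tetrameric motor that pushes the spindle poles apart, had levels of 9.57 to 10.26 in control, 9.14 to 9.84 with let-7a, 10.26 to 10.46 with siSfpq and 9.48 to 9.87 with both. Kif15, which can stand in for Kif11, had 8.44 to 8.91, 7.75 to 8.63 and 8.35 to 8.72 in control, let-7a and both, and up to 9.41 with siSfpq. For both genes the siSfpq samples lay above all control samples, for Kif11 by less than the last digit printed, and the change with siSfpq, 0.54 for Kif11 and 0.61 for Kif15, passed limma's test with the block (adjusted p = 0.0245 and 0.0279) and without replicate 3 (adjusted p = 0.000182 and 0.000243), but not in the fit of all replicates without a block. Kif14, a cytokinesis motor, was the most variable of the list, from 6.33 to 8.38 among the samples with both agents, and passed in no comparison.

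**Figure D2:**
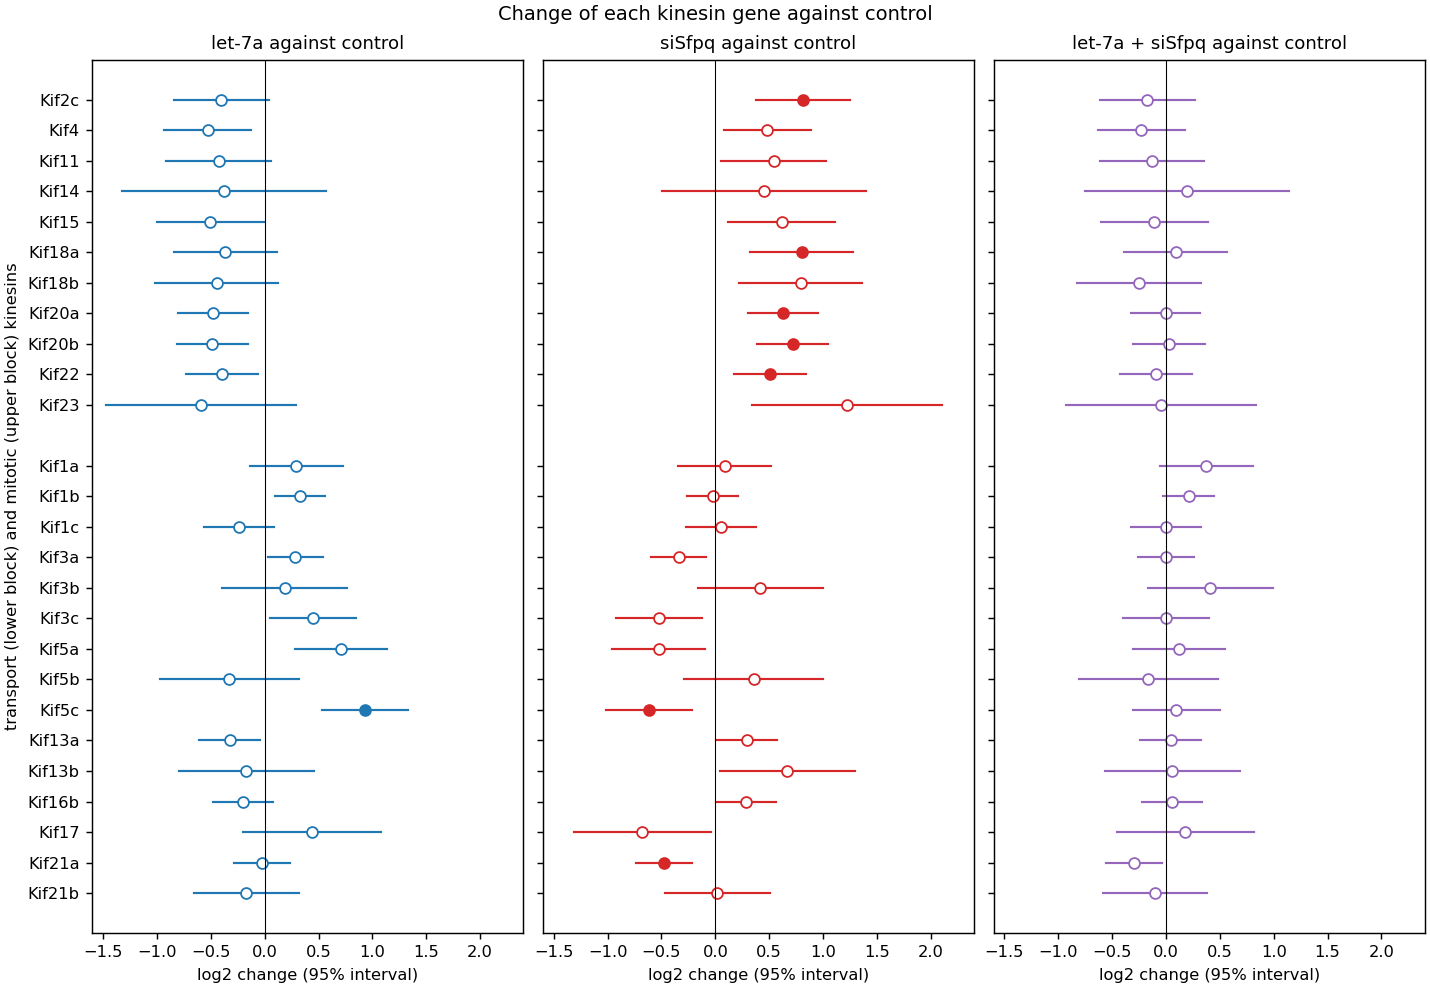
Change of each mitotic and transport kinesin against control on the log2 scale (horizontal axis) with its 95% interval from limma, for let-7a, siSfpq and both (panels). Filled points passed the test. All 11 mitotic kinesins lie below 0 with let-7a and above 0 with siSfpq, and the intervals of all 11 include 0 with both.

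With both agents the mean of each of the 11 mitotic kinesins lay between those of the single treatments. Against control the median change was -0.09, 8 of 11 changes were negative, and none passed limma's test, where 1.54% of all genes did, nor its blocked form, and none had an unadjusted p under 0.05. The replicates differed, with a median of 0.03 for the mean of 1 and 2, -0.38 for 3 and -0.05 for 4. In replicate 3, 9 of 11 were negative. Without replicate 3, Kif23 rose by 0.45 (limma adjusted p = 0.0236), where 10.5% of all genes rose. Against siSfpq alone, where Sfpq itself was 0.52 higher with both agents, all 11 changes were negative, with a median of -0.71 and a range of -1.27 to -0.25. Of these 6 fell, Kif2c by 0.99, Kif4 by 0.71, Kif18b by 1.04, Kif20a by 0.63, Kif20b by 0.69 and Kif22 by 0.60 on the log2 scale, with limma adjusted p of 0.0158 to 0.035. Among all genes 10.4% passed, and 4.14% as lower. With the block 10 of 11 fell, again without Kif14, against 15.7% of all genes, and the same 10 fell without replicate 3, against 22.4%. Against let-7a alone all 11 changes were positive, with a median of 0.40, and none passed limma's test, where 3.14% of all genes passed, although 2 had an unadjusted p under 0.05, as did 7.59% of all genes with a positive change. With the block Kif20b rose by 0.51 (adjusted p = 0.0435), where 5.96% of all genes passed as higher. Without replicate 3, 9 of 11 rose, against 13.6% of all genes. The median against let-7a alone was 0.48 for the mean of 1 and 2, 0.08 for 3 and 0.49 for 4. The comparisons share samples, so their directions are not independent of each other.

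The interaction term asks whether the effect of let-7a with siSfpq present differs from its effect without. It was negative for 10 of 11 mitotic kinesins, with a median of -0.22, and the lowest adjusted p among them was 0.806, for Kif2c. No gene on the array passed limma's test of the interaction, a share of 0%, and no mitotic kinesin had an unadjusted p under 0.05. With the block 0.0218% of all genes passed and no kinesin did. Without replicate 3, 5 mitotic kinesins passed, Kif2c, Kif18a, Kif18b, Kif22 and Kif23, where 10.2% of all genes passed with a negative term, and Kif26a and Kif26b passed with a positive one, as did 12.3%. By replicate the list's median interaction was -0.44 for the mean of 1 and 2, -0.37 for 4 and 0.03 for 3. Sfpq itself had an interaction of 0.78 for the mean of 1 and 2, 0.87 for 4 and 0.01 for 3. Without replicate 3 it was 0.83 and passed, so in those samples the knockdown was weaker with both agents than with siSfpq alone. Whether this or the weaker knockdown in replicate 3 has a part in the interaction of the list was not tested.

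A feature that the naming rule did not use is the start of these genes. Promoters of genes active late in the cell cycle often hold a CHR element, the letters TTTGAA, to which the MuvB complexes bind, and CCAAT boxes, to which NF-Y binds. In RefSeq promoters of GRCm38.p6, 250 bases before to 50 after each start, TTTGAA on either strand (TTCAAA on the other) was found in 17.9% of all 32851. A promoter was listed for 31 of the 38 kinesin genes. Of 11 mitotic kinesins listed, 9 held TTTGAA, namely Kif2c, Kif4, Kif11, Kif14, Kif15, Kif18b, Kif20b, Kif22 and Kif23, and Kif2b and Kif18a did not. Of 11 transport kinesins listed it was found in 1, Kif1a, of 5 ciliary kinesins in 1, Kif27, and of the 4 others in 1, Kif26b. CCAAT on either strand (ATTGG on the other) was in 37.4% of all promoters, in 7 of 11 mitotic, 3 of 11 transport and 3 of 5 ciliary kinesins and in 1 of the 4 others. TTTGAA and ATTGG strings can share an end letter. A match is a description of the letters and does not show that a factor binds.

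The stretch around the match nearest the start is printed for the mitotic kinesins, 5′ to 3′ on the strand of the gene, to show where the letters lie in each. Capitals mark TTTGAA or TTCAAA and CCAAT or ATTGG. The lines give, in order, Kif2c (chr4:117178843-117178902, minus strand), Kif4 (chrX:100626055-100626114, plus), Kif11 (chr19:37376336-37376395, plus), Kif14 (chr1:136467598-136467657, plus), Kif15 (chr9:122951035-122951094, plus), Kif18b (chr11:102925089-102925148, minus), Kif20b (chr19:34922338-34922397, plus), Kif22 (chr7:127042405-127042464, minus) and Kif23 (chr9:61946765-61946824, minus). Kif18a (chr2:109280678-109280757, plus) and the transport kinesin Kif5c (chr2:49619226-49619305, plus) follow as genes with no match, from 60 bases before the start.
Kif2c: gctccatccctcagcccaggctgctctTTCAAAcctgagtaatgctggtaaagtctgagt
Kif4: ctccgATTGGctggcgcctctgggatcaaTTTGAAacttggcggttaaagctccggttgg
Kif11: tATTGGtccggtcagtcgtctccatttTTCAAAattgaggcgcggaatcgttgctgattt
Kif14: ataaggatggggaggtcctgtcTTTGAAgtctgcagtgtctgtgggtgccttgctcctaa
Kif15: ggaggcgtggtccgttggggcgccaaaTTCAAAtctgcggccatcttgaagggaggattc
Kif18b: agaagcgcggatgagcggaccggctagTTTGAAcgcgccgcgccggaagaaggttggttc
Kif20b: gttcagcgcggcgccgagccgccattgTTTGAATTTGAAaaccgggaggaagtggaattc
Kif22: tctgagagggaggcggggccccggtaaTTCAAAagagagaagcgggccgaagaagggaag
Kif23: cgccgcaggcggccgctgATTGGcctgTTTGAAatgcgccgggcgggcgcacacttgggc
Kif18a: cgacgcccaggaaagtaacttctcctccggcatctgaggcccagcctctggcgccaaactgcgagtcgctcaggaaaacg
Kif5c: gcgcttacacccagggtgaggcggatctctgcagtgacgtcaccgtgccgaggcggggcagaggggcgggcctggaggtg
The match began between -19 and 19 in Kif4, Kif11, Kif15, Kif18b, Kif20b, Kif22 and Kif23, and further upstream in Kif2c at -103 and Kif14 at -228, counted from the start at 0. With siSfpq 3 of the 9 with a match rose, Kif2c, Kif20b and Kif22, where 6.31% of all genes did. With the block 8 of the 9 rose, all but Kif14, where 18.4% of all genes did, and the same 8 rose without replicate 3, where 24% did. Kif18a rose with no match in this window, and Kif20a, which also rose, is not among the promoters listed.

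Transport kinesins did not move as a set. With let-7a 8 of 15 changes were positive and 7 negative, with a median of 0.19 and a range of -0.33 to 0.93. The lowest change of a transport kinesin, that of Kif5b, was above the highest of a mitotic kinesin. Kif5c was the member that passed limma's test, where 4.91% of all genes passed as higher. With the replicate block Kif1b, Kif3c, Kif5a and Kif5c rose, where 11.6% of all genes did, and Kif13a fell, where 10.1% did. Without replicate 3, Kif1a, Kif1b, Kif3a, Kif5a and Kif5c rose, against 15.6% of all genes, and Kif13a fell, against 14.5%. With siSfpq 8 changes were positive and 7 negative, with a median of 0.02. Kif5c and Kif21a fell, where 7.34% of all genes passed as lower, and the block added Kif3a, Kif3c and Kif17 as lower (19.4% of all genes) and Kif13a as higher (18.4%). The value of Kif17 averages a probe that was well above background on none of the 4 siSfpq arrays. Without replicate 3, Kif3a, Kif3c, Kif5a, Kif5c and Kif21a fell, against 25.3% of all genes, and Kif3b, Kif5b, Kif13a and Kif13b rose, against 24%.

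The heavy chains of conventional kinesin, which carry mitochondria and vesicles, differed among themselves. Kif5c, the form found mainly in neurons, had levels of 12.03, 11.36 and 11.97 in control, 12.95, 12.36 and 12.83 with let-7a, 11.17, 11.16 and 11.19 with siSfpq. With both they were 11.93, 11.75 and 11.96. All let-7a samples were above and all siSfpq samples below control. Kif5c rose by 0.93 ± 0.18 (SE) with let-7a, a fold of 1.90 (limma adjusted p = 0.0117), and fell by 0.61 on the log2 scale with siSfpq (SE 0.18, limma adjusted p = 0.0471). With both agents it was 0.83 below let-7a alone (adjusted p = 0.0341) and 0.71 above siSfpq alone (adjusted p = 0.035), each with an SE of 0.18 in limma's fit. Its change with both against control was 0.10, with an interval of -0.31 to 0.50. The Kif5c probe lies at chr2:49630228-49630287 (mm9).

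Kif5a, also a neuronal heavy chain, had levels of 9.47, 9.27 and 9.59 in control, 10.30, 9.79 and 10.37 with let-7a, 8.70, 9.32 and 8.73 with siSfpq. With both agents it had 9.59, 9.44 and 9.68. The let-7a samples were all above control, and the siSfpq sample of replicate 3 overlapped control. Its change of 0.71 ± 0.20 with let-7a missed the threshold (limma adjusted p = 0.0521) and passed with the block (adjusted p = 0.0268). With siSfpq it was -0.53 ± 0.20 (limma adjusted p = 0.0923, or 0.0534 with the block). Its probes differed, with 1.04 and 0.37 for let-7a and -0.91 and -0.14 for siSfpq. Kif5b, the form used by all cells, had opposite signs, -0.33 ± 0.29 with let-7a and 0.36 ± 0.29 with siSfpq, and passed only without replicate 3, as higher with siSfpq (limma adjusted p = 0.0332) and as lower with both against siSfpq (adjusted p = 0.00775).

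Heterotrimeric kinesin-2, which carries cargo in axons and within cilia, is built from Kif3a with Kif3b or Kif3c. Kif3c, the partner enriched in neurons, had levels of 10.17, 10.19 and 10.36 in control, 10.66, 10.64 and 10.78 with let-7a, 9.27, 10.02 and 9.86 with siSfpq. The samples with both had 9.97, 10.41 and 10.35. Both single treatments lay apart from control, in opposite directions. The changes of 0.45 ± 0.18 with let-7a and -0.52 ± 0.18 with siSfpq passed limma's test with the block (adjusted p = 0.0359 and 0.0139). Kif3a followed with 0.28 ± 0.12 and -0.34 ± 0.12, of which the latter passed with the block (limma adjusted p = 0.0227). Kif3b had 0.19 ± 0.26 and 0.42 ± 0.26, and passed only without replicate 3, as higher with siSfpq and with both against control (limma adjusted p = 0.0114 and 0.0396). One of its probes was above background on 2 of 4 control arrays. Kif17, the homodimeric kinesin-2 that carries glutamate receptors in dendrites, had a change with siSfpq of -0.68 ± 0.29 that passed with the block (limma adjusted p = 0.0111). Of its probes, one changed by -1.12 and was well above background on none of the 4 siSfpq arrays, so that it has only a bound there, and the other, measured on all arrays, by -0.24.

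Kinesin-3 motors carry synaptic vesicle precursors and endosomes. Kif1a, the axonal form, had changes of 0.29 ± 0.20 with let-7a and 0.09 ± 0.20 with siSfpq, and its probes had opposite signs with siSfpq, at -0.18 and 0.36. Kif1b, which carries vesicles and mitochondria, measured 10.47 to 10.72 in control and 11.08, 10.81 and 10.99 with let-7a, which did not overlap. Its change of 0.33 ± 0.11 passed with the block (limma adjusted p = 0.0968, or 0.0153 with the block). Its probes had opposite signs with siSfpq, at -0.34 and 0.29. Kif1c and Kif16b, which carry vesicles and early endosomes outside neurons as well, had changes of -0.24 and -0.20 with let-7a. Kif1c passed in no comparison, and Kif16b in one, without replicate 3, as lower with both against siSfpq (limma adjusted p = 0.0268). Kif13a, which moves recycling endosomes, had the mitotic signs, -0.33 ± 0.13 with let-7a and 0.29 ± 0.13 with siSfpq, and passed in both with the block (limma adjusted p = 0.0347 and 0.0356). Kif13b had -0.17 ± 0.29 and 0.67 ± 0.29, and the latter passed only without replicate 3 (limma adjusted p = 0.0179).

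The kinesin-4 member Kif21a, which limits microtubule growth in growth cones, had levels of 12.72, 12.50 and 12.45 in control, 12.65, 12.29 and 12.65 with let-7a, 12.16, 12.13 and 11.95 with siSfpq. With both they were 12.35, 12.20 and 12.23. All siSfpq samples were below control. Kif21a fell by 0.48 on the log2 scale with siSfpq (SE 0.12, limma adjusted p = 0.0251), and its let-7a change was -0.03 ± 0.12. Its relative Kif21b had -0.17 ± 0.22 with let-7a and 0.02 ± 0.22 with siSfpq.

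With both agents the transport kinesins were near control, with a median of 0.06 and a range of -0.30 to 0.41, and none passed limma's test or its blocked form. Without replicate 3, Kif1a and Kif3b rose, where 10.5% of all genes did, and Kif21b fell, where 7.87% did. There was 1 unadjusted p under 0.05, that of Kif21a at -0.30, where 4.65% of all genes were lower at that threshold. Against let-7a alone the median was 0.07, while the medians of single replicates were negative, -0.14 for the mean of 1 and 2, -0.10 for 3 and -0.09 for 4, and Kif5c fell, where 2.18% of all genes did. The block added Kif13a as higher by 0.37 (limma adjusted p = 0.0312), where 5.96% of all genes rose. Without replicate 3, Kif3a, Kif5a, Kif5c and Kif21a fell, against 13.2% of all genes, and Kif13a rose, against 13.6%. Against siSfpq alone the median was 0.18, and Kif5c rose, where 6.21% of all genes did, and the block added Kif1b, Kif3a, Kif3c, Kif5a and Kif17 (17.6% of all genes), of which Kif17 rests on the same dim probe in siSfpq samples. Without replicate 3 these 6 rose, against 24.8% of all genes, and Kif5b, Kif13a, Kif16b and Kif21b fell, against 22.4%. The interaction had a median of -0.01 and passed for none, also not with the block or without replicate 3.

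**Figure D3:**
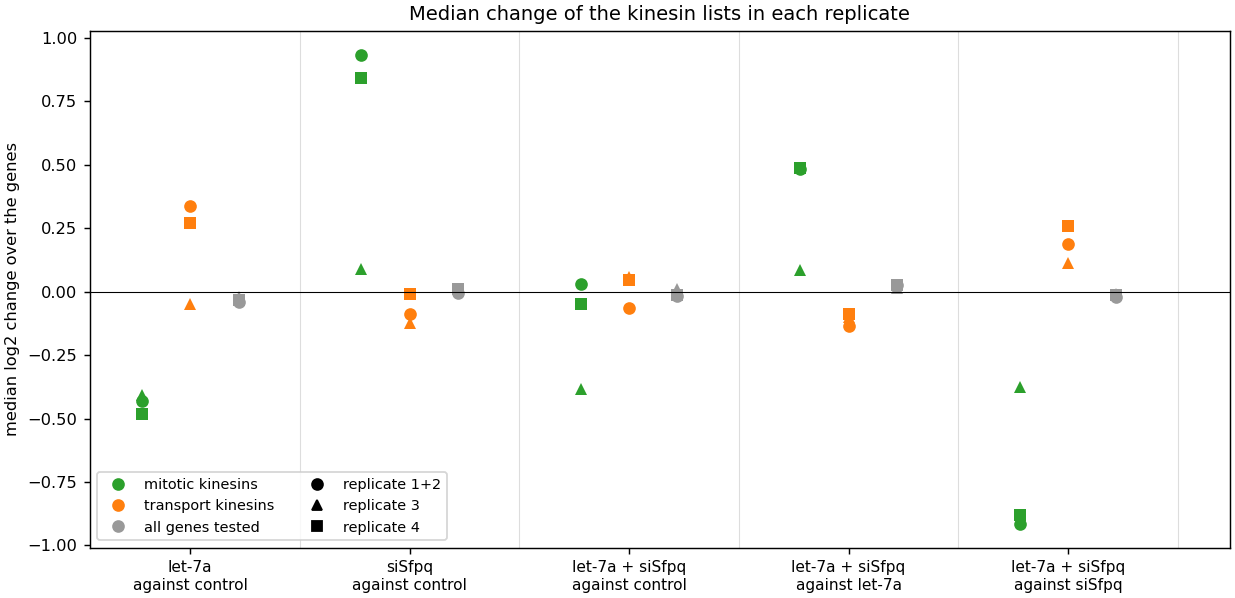
Median log2 change (vertical axis) over the 11 mitotic kinesins, the 15 transport kinesins and all genes tested, in each replicate, for 5 comparisons (horizontal axis). The mitotic median is below 0 with let-7a and above 0 with siSfpq in all replicates, at 0.09 in replicate 3 for siSfpq, and the transport median with let-7a is positive in replicates 1, 2 and 4 and -0.05 in replicate 3.

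Compared replicate by replicate, the lists differed in how even they were. With let-7a the mitotic median was -0.43 for the mean of 1 and 2, -0.41 for replicate 3 and -0.48 for replicate 4. The transport median was 0.34, -0.05 and 0.27 in the same order. With siSfpq the transport medians were -0.09, -0.13 and -0.01. All 11 mitotic kinesins were lower with let-7a in each replicate, and 11, 8 and 11 were higher with siSfpq. The members were chosen by name and role and are not replicates of a condition, so no test was made over them.

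Among the kinesins of cilia and the others, few passed. Kif26a, a motor without ATPase activity that restrains signalling in neurons, had levels of 8.01, 7.84 and 7.95 in control, 8.15, 7.62 and 8.22 with let-7a, 6.81, 7.54 and 6.93 with siSfpq. With both agents it had 7.88, 7.55 and 7.73. It fell by 0.84 on the log2 scale with siSfpq (SE 0.21, limma adjusted p = 0.0273), and its change against siSfpq alone with both, 0.63 ± 0.21, passed with the block (adjusted p = 0.0445). Its probes had opposite signs with let-7a, at 0.56 and -0.43, and like signs with siSfpq, at -0.94 and -0.75, the latter from a probe above background on 2 of 4 siSfpq arrays. Kif6, a kinesin of motile cilia, entered the test only through its control level and was not well above background on any siSfpq array. It was at least 1.4-fold lower there than in control, where it passed the background limit on all 4 arrays. The limma adjusted p was 0.0432. It comes from a comparison with the same control arrays that let Kif6 into the test, and so is no support for a fall. Without replicate 3 the limma adjusted p of Kif6 was 0.0704.

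Kif12 had the largest changes in value with both agents, -1.89 ± 0.68 against control, and passed in no comparison of all replicates. Its levels were 6.14, 5.38 and 5.66 in control and 3.40, 5.52 and 2.60 with both, where it was above background on 2 of 4 arrays. The replicate 3 sample with both lay within the control range and the others far below it. Without replicate 3 it passed as lower with both against control, against let-7a and against siSfpq (limma adjusted p = 0.02, 0.0232 and 0.0305), values that rest in part on arrays where it was not above background. The block added Kif24, a centriole kinesin, and Kif26b as lower with let-7a (10.1% of all genes), and Kif7, a regulator of Hedgehog signalling at the cilium tip, as lower with siSfpq and with both (19.4% and 2.81% of all genes). Kif2a, a microtubule depolymerase of spindle poles and of neurites, changed by 0.01 with let-7a and by -0.01 with siSfpq, each with an SE of 0.11.

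**Figure D4:**
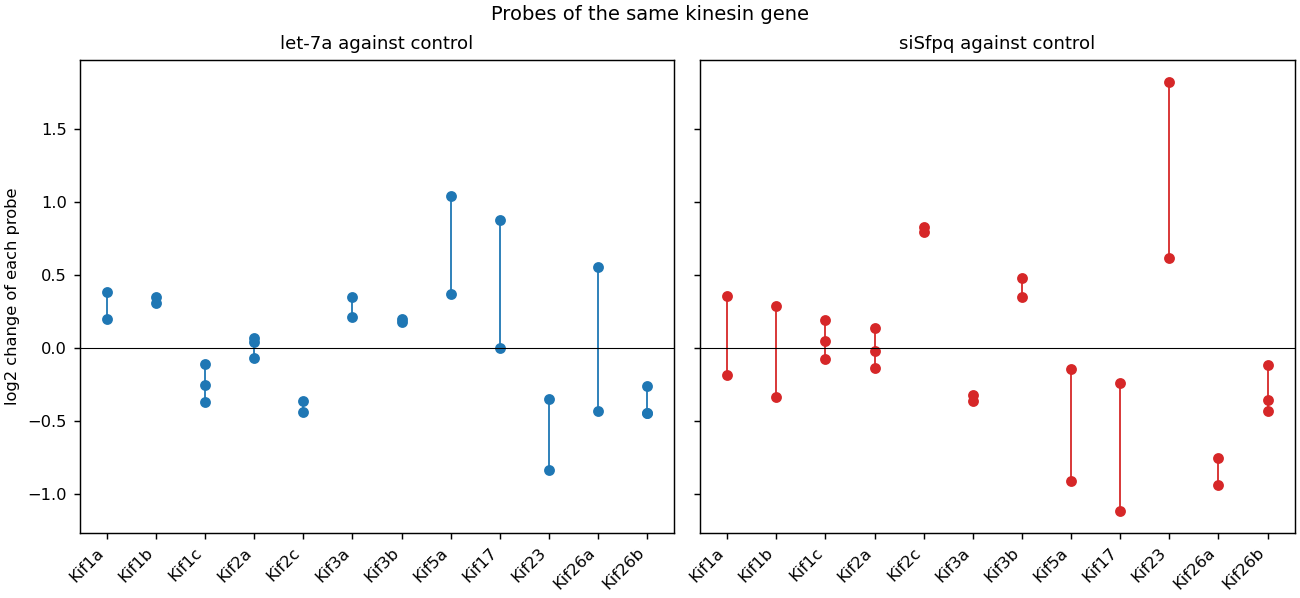
Log2 change of each kept probe (vertical axis) for the 12 kinesin genes with more than 1 kept probe (horizontal axis), with let-7a and with siSfpq (panels). Lines join probes of a gene. The probes of Kif2c and Kif3a lie close together, and those of Kif5a, Kif17 and Kif23 lie apart in both panels.

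The genes that work with these motors gave the setting. Of 21 spindle and cytokinesis partners all 21 had negative changes with let-7a (median -0.43, none passed limma's test, 13 with an unadjusted p under 0.05, against 9.38% of all genes as lower, and 5 lower with the block against 10.1% of all genes). Without replicate 3, 17 passed as lower, against 14.5% of all genes. With siSfpq all 21 had positive changes (median 0.53), with medians of 0.82 in the mean of replicates 1 and 2 and 0.75 in replicate 4, but of 0.03 in replicate 3, where 11 were positive. With siSfpq 5 of them rose, Bub1b by 0.55, Ccnb1 by 0.73, Cenpe by 0.68, Nusap1 by 0.60 and Prc1 by 0.86, where 6.31% of all genes did, and 18 rose with the block, where 18.4% did. Cenpe is a kinesin of the kinetochore whose name falls outside the rule, and Prc1 is the bundler that recruits Kif4 and Kif20a to the midzone. Against siSfpq alone 12 of 21 fell with both agents, with a median of -0.64, where 4.14% of all genes fell, and 19 fell with the block, where 15.7% did. Among 4 kinesin-14 motors, which move the other way along microtubules, the Kifc1-like Kifc5b rose by 1.15 with siSfpq (limma adjusted p = 0.0133), and Kifc2, a neuronal form, had a change of -0.58 that passed with the block (adjusted p = 0.0173). The block also added Kifc1, at 0.67, and Kifc3, at 0.29, as higher, which makes 3 higher and 1 lower, against 18.4% and 19.4% of all genes. Kifc1 and Kifc5b are close copies, so their probes may share signal.

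Adaptors that link transport kinesins to cargo changed in both directions. Of 21, 3 rose with let-7a, Sybu by 3.76 ± 0.35, Mapk8ip1 by 0.76 ± 0.11 and Arl8a by 0.59 ± 0.14, with limma adjusted p of 0.000296, 0.00231 and 0.0244, where 4.91% of all genes rose. With the block 6 rose and 2 fell, against 11.6% and 10.1%, and without replicate 3, 8 rose and 3 fell, against 15.6% and 14.5%. Sybu encodes syntabulin, which links Kif5 motors to syntaxin vesicles and mitochondria. With both agents it was 1.80 lower than with let-7a alone (adjusted p = 0.0212) and still 1.96 above control (adjusted p = 0.0215). With siSfpq Klc1, a light chain of Kif5 motors, fell by 0.57, Trak1, the mitochondrial adaptor, by 0.57, Mapk8ip1 by 0.53 and Grip1 by 1.01, while Arl8b rose by 0.34 and Mapk8ip2 by 1.18, with limma adjusted p of 0.0109 to 0.0322. Among all genes 7.34% fell and 6.31% rose. Without replicate 3, 11 adaptors fell and 5 rose, against 25.3% and 24% of all genes. Of 15 measured subunits of cytoplasmic dynein and dynactin, the motor of the opposite direction, 14 had positive changes with let-7a (median 0.17) and none passed, with 3 at an unadjusted p under 0.05, against 11.4% of all genes as higher. With the block 6 rose, against 11.6% of all genes, and without replicate 3, 8 rose, against 15.6%. With siSfpq Dync1i1, a neuronal intermediate chain, fell by 0.80 and Dynlrb1 by 0.44, where 7.34% of all genes fell. With the block 7 fell and 1 rose, against 19.4% and 18.4%, and the counts were the same without replicate 3, against 25.3% and 24%.

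**Figure D5:**
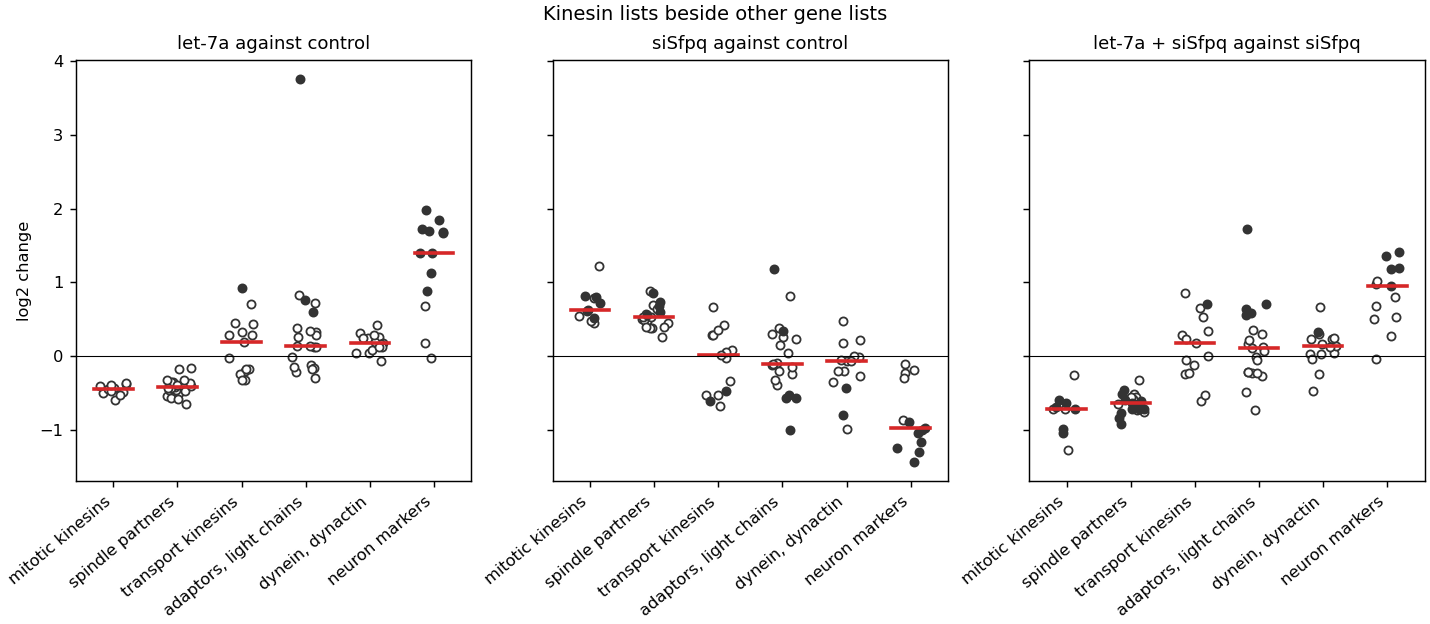
Log2 change (vertical axis) of the members of 6 gene lists (horizontal axis) with let-7a, with siSfpq and with both against siSfpq alone (panels). Filled points passed the test, red bars are medians, and points are spread sideways for display. The spindle partners lie with the mitotic kinesins, while the transport kinesins and adaptors spread on both sides of 0 and the neuron markers lie far from 0.

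Neuron markers moved in the direction of Kif5c and Kif5a. Of 13 markers, 10 rose with let-7a (median 1.40), where 4.91% of all genes rose, among them Tubb3 by 1.40 and Map2 by 1.12. With siSfpq 8 fell (median -0.98), where 7.34% of all genes fell, among them Tubb3 by 1.44 and Map2 by 1.25. Their summed level was 47134 to 58273 in control, 71136 to 98804 with let-7a, 29333 to 36275 with siSfpq and 43436 to 47406 with both, in intensity units. The part of these shifts in the changes of the transport kinesins was not tested, and in these bulk samples fewer cells of a type and less RNA per cell cannot be told apart. For the mitotic kinesins the same holds for the share of dividing cells. The proliferation marker Mki67 had a change of -0.33 with let-7a that did not pass, and of 0.40 with siSfpq that passed with the block (limma adjusted p = 0.0531, or 0.0266 with the block). The replication genes Pcna and Mcm2 had changes with siSfpq of -0.24 and -0.11 that did not pass with or without the block. Without replicate 3, Mki67 rose by 0.61, where 24% of all genes rose, and Pcna fell by 0.43, where 25.3% fell (limma adjusted p = 0.000262 and 0.00231). With let-7a Mki67 and Pcna fell without replicate 3, by 0.33 and 0.29, where 14.5% of all genes fell. Of 6 mesoderm and endoderm markers 4 were measured, of which 2 fell with let-7a (2.03% of all genes) and 1 rose with siSfpq (6.31%), or 2 with the block (18.4%). With let-7a 3 of the 4 had negative changes, while Foxa2, the dimmest, went from a mean level of 3.84 to 4.71. All 4 had positive changes with siSfpq. Their summed level was 1499 to 2015 in control, 552 to 568 with let-7a, 3541 to 6944 with siSfpq and 892 to 1909 with both. The sum is led by T, the highest of the 4 in each condition, with mean levels of 10.16 in control and 12.07 with siSfpq.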

How the data were processed

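RNA of P19 cells was hybridised to Agilent 1-colour arrays, 4 per condition, 16 in all. Per the file headers the authors extracted spot intensity with Feature Extraction 10.7.3.1, and the deposited scanner files hold the processed signal, a background-corrected and detrended intensity. The authors also deposited a table of processed log2 values, which was used as an alternative only. Its values followed log2 of the median signal. Groups came from the labels.

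Processed signals were set to log2 and quantile normalized across arrays with limma 3.58.1 in R 4.3.3. Control spots and spots marked as outliers were left out and repeated spots averaged. Probes stayed in if the software's flag put them clearly above background in each of the 4 arrays of some condition. In all, 39 probes with a missing value were dropped, kept probes of a gene were averaged, and 18338 genes remained. The number of arrays limits the precision. Arrays 1 and 2 of each condition had an SD between them of 0.0964 to 0.115 over probes well above background on all arrays, near the 0.0697 to 0.0887 between spots of a probe, and were counted as 1 sample, which leaves n = 3 where the labels number 4. All conditions were fitted together, with moderated variances and a mean trend, and p-values were adjusted by Benjamini-Hochberg over all genes.

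Same-numbered samples of different conditions correlated in their deviations from the group means at 0.284 to 0.707 over 18 pairs, and others at -0.625 to 0.204 over 36 pairs. The numbers, taken from the labels, were therefore used as a block in an alternative fit. Other alternatives were normexp background correction, scaling to the 75th percentile, other filters, the slide as a block, 16 separate arrays, the brightest probe and leaving out replicates. The scripts were tested on simulated data. Replicates 1 and 2 of all conditions were on one slide and 3 and 4 on the other.

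Genes were named through the array's own names and RefSeq accessions. A further 18905 probes named by a region or a probe ID were left out. All kinesins of the mitotic and transport lists are described, and others where they passed or had one of the 3 largest changes, or passed with the block. Members and lists were chosen with earlier results of these data known. Promoters and the microRNA came from RefSeq, GRCm38.p6. Probe coordinates are those of the files, mm9.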

Additional observations from a re-analysis of the deposited data

How the results depend on the processing

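Directions of the mitotic medians held under every alternative run, and the number of kinesins that passed did not. With the replicate block, which pairs same-numbered samples, 11 kinesins passed with let-7a, 19 with siSfpq, 1 with both against control, 3 with both against let-7a and 17 with both against siSfpq, where 1, 9, 0, 1 and 7 passed without it. Of all genes 21.7%, 37.8%, 8.15%, 13.2% and 33.3% passed with the block. With 16 arrays counted separately these numbers were 10, 21, 2, 7 and 20, and 19.8%, 36%, 7.89%, 14.2% and 32.4% of all genes passed. With no filter on dim probes 4 passed with siSfpq, 0 with both against let-7a and 3 with both against siSfpq (5.54%, 1.13% and 3.82% of all genes). With the brightest probe of each gene 3 passed with let-7a, 1 with both against control and 11 with both against siSfpq (6.71%, 1.43% and 10.2%). Normexp background correction and the authors' values each gave 2 with let-7a (7.66% and 7.24%). Leaving out replicates 1 and 2, 3 or 4 in turn gave 0 to 16 with let-7a, 0 to 21 with siSfpq, 0 to 5 with both against control, 0 to 16 with both against let-7a, 0 to 22 with both against siSfpq and 0 to 7 for the interaction. The highest number came without replicate 3, where 30.1%, 49.3%, 18.3%, 26.8%, 47.2% and 22.5% of all genes passed. Without replicates 1 and 2 or without replicate 4, at most 0.0164% did.

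The mitotic median with let-7a was -0.40 with normexp and -0.39 in the authors' values. Leaving out replicates, the mitotic median ran from -0.47 to -0.41 with let-7a, 0.51 to 0.88 with siSfpq, -0.16 to -0.01 with both against control, 0.27 to 0.48 against let-7a, -0.89 to -0.59 against siSfpq and -0.39 to -0.16 for the interaction. The transport median was near 0 and changed sign with siSfpq, with both against control and against let-7a, and for the interaction. It stayed positive with let-7a and with both against siSfpq. With siSfpq it was -0.0063 with normexp, -0.0097 with 16 arrays, -0.032 in the authors' values and -0.18 with the brightest probe, and -0.043 to 0.027 leaving out replicates. With both against control it was -0.0075 to 0.046 leaving out replicates (0.040 without replicate 4). With both against let-7a it was 0.0098 with a filter on all 16 arrays and with the brightest probe, 0.011 with 16 arrays separately, and -0.12 to -0.0019 leaving out replicates (-0.071 without replicate 4). With both against siSfpq it was 0.074 with the 75th percentile, 0.069 with the filter on all 16 arrays, and 0.13 to 0.23 leaving out replicates. For the interaction it was 0.021 with normexp, 0.0013 in the authors' values, 0.047 with the brightest probe, and -0.031 to 0.015 leaving out replicates (0.0025 without replicate 4). With let-7a it was 0.078 to 0.30 leaving out replicates. The cause was not tested.

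No call on a single kinesin turned direction. Without replicate 3, Kif6 with siSfpq no longer passed, and without replicates 1 and 2 or without replicate 4 none of the calls passed, in fits with 2 samples per condition. The slide as a block kept them all. Over the alternatives that left out no replicate, a call on a kinesin was kept 146 times and lost 15 times. Kif6, one of the 9 with siSfpq, entered only through control. Dim probes, those of Kif6, Kif12 and 1 each of Kif17, Kif23, Kif26a and Kif3b, limit their genes.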
